A study of Mus musculus with 11 samples.

Results

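The 10 genes described here encode β-catenin (Ctnnb1), the proteins that mark it for destruction (Apc, Axin1, Gsk3b, Csnk1a1 and Btrc) and its 4 partners on DNA, the Tcf/Lef factors Tcf7, Tcf7l1, Tcf7l2 and Lef1. They were chosen by name, and a probe was taken as theirs when its accession matched the gene's symbol in a RefSeq table of the mouse. The array carried 18 such probes among 55681 that are not controls. All 10 genes passed the filter on dim probes with 16 of these probes, out of 22283 genes and unnamed transcripts tested, 13963 of them with a symbol.

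Total RNA from 11 liver samples of male mice was hybridised to Agilent arrays in 1 colour (Cy3). The groups were β-catΔEx3 (mutant β-catenin, 3 arrays), β-catΔEx3:Myc (4 arrays) and wild type (WT, 4 arrays). The labels do not state that each array is a separate mouse, and p-values measure the spread between these samples. The design text counts the β-catΔEx3:Myc livers only as expressing c-Myc, and the presence of mutant β-catenin in them is taken from their labels. The series is about mouse models of hepatoblastoma, a liver cancer of young children, and that text speaks of livers bearing tumours for all samples, WT included. All mice were untreated, 22 to 40 days old (30, 29 and 31 days for the β-catΔEx3, β-catΔEx3:Myc and WT samples of slide 4) and of a hybrid strain, mostly B6SJL with a small part of 129S6. The promoter or Cre line behind the mutant β-catenin and Myc, and whether tumour or surrounding tissue was taken, are not given in the sources used here.

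β-catenin is the messenger between Wnt receptors and the nucleus. In cells without a Wnt signal it is held by the scaffolds Axin and Apc, phosphorylated by casein kinase 1α and then by glycogen synthase kinase 3β at residues encoded by exon 3, and handed by the F-box protein β-TrCP (Btrc) to the proteasome. A β-catenin without exon 3 escapes this and binds Tcf/Lef factors, which otherwise hold Wnt target genes silent together with corepressors of the Tle family. In the liver the signal is normally strongest in hepatocytes around the central vein.

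Signal is given as a percentage of the 75th percentile of each array's processed signal (relative signal), a scale that allows comparison of 1 probe between arrays and not of different probes. The upper quartile itself lay between 227 and 354.3 scanner units, 47.9% to 52.4% of probes rose well above background, and none was saturated. All 8 hepatocyte markers were above background on every array. Their summed relative signal was 338022 to 412969% in β-catΔEx3, 291383 to 460863% in β-catΔEx3:Myc and 562371 to 696645% in WT livers. In such bulk tissue, fewer cells of a type and less RNA per cell cannot be told apart. The first principal component parted all WT from all mutant arrays, and on the second β-catΔEx3:Myc replicate 3 lay between the mutant groups. Slide 1 held WT replicates 1 to 3, slide 2 replicates 1 and 2 of both mutant groups, slide 3 β-catΔEx3:Myc replicate 3, and slide 4 a single array of each group. Values with slide as a block are called blocked. In the comparisons with WT they rest on WT replicate 4, the only WT array that shared a slide with mutant arrays.

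At the probe used for each gene, the calls fell mostly on Tcf/Lef genes. There 3 of 4 were called in β-catΔEx3 and 4 of 4 in β-catΔEx3:Myc livers. Of the 6 genes of β-catenin and its destruction complex, 1 (Apc) was called in each. Other probes of Gsk3b in β-catΔEx3 livers, and of Csnk1a1 and Btrc in β-catΔEx3:Myc livers, were also called, so this split depends on the probe. Whether these shares differ was not tested. Against WT, β-catΔEx3 livers had 1 of the 10 genes higher (Tcf7) and 3 lower (Apc, Tcf7l1 and Tcf7l2). In β-catΔEx3:Myc livers 2 were higher (Tcf7 and Lef1) and the same 3 lower. A gene was called when its limma p-value, adjusted over all 22283 tests, was under 0.05. By that rule 37.1% of everything tested was called in β-catΔEx3 livers (21.6% higher, 15.5% lower) and 42.4% in β-catΔEx3:Myc livers (25.3% higher, 17.1% lower), so 4 and 5 of 10 are close to the general share. The median log2 fold change (log2FC) of the 10 genes was -0.09 in β-catΔEx3 and -0.17 in β-catΔEx3:Myc livers, against 0.10 and 0.14 for everything tested. For 5 of the 10 genes in each comparison all mutant arrays lay on one side of all WT arrays, as they did for 43.7% (β-catΔEx3) and 42.4% (β-catΔEx3:Myc) of everything tested. The blocked fit called 2 and 2 genes (Tcf7 and Tcf7l2), against a background of 8.14% and 8.77%. Both comparisons use the same WT arrays and are not independent.

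Ctnnb1, the transcript of β-catenin, was not called in either comparison. Its relative signal was 842, 875 and 984% in β-catΔEx3 livers, 1022, 892, 955 and 756% in β-catΔEx3:Myc livers, and 913, 984, 979 and 1187% in WT livers. The 3 groups overlapped. The log2FC was -0.17 ± 0.15 (SE; adjusted p = 0.416, limma) in β-catΔEx3 livers, with a 95% confidence interval of -0.51 to 0.17. It was -0.17 ± 0.14 (adjusted p = 0.378) in β-catΔEx3:Myc livers, with an interval of -0.48 to 0.15. The single Ctnnb1 probe could not be placed relative to exon 3 here, so it checks neither the deletion nor the labels, and the abundance of the protein was not measured.

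Apc, the large scaffold that is lost in many colorectal tumours, was the only member of the destruction complex called at its gene-level probe. It had 22.2, 17.2 and 21.6% in β-catΔEx3 livers, 19.4, 24.4, 23.0 and 23.3% in β-catΔEx3:Myc livers, and 30.6, 29.3, 34.6 and 42.3% in WT livers. Every mutant array lay below every WT array. Apc was 1.68-fold lower in β-catΔEx3 livers (log2FC -0.75 ± 0.17, adjusted p = 0.0072) and 1.51-fold lower in β-catΔEx3:Myc livers (log2FC -0.59 ± 0.16, adjusted p = 0.0125). The blocked values were larger and not called, at -0.99 (adjusted p = 0.0651) and -0.85 (adjusted p = 0.0917). A second Apc probe was above background on 1 of the 11 arrays and was not tested.

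Axin1, the scaffold on which the kinases meet β-catenin, stood at 135, 92.8 and 141% in β-catΔEx3 livers, 151, 168, 132 and 123% in β-catΔEx3:Myc livers, and 175, 169, 151 and 149% in WT livers. All 3 β-catΔEx3 arrays lay below all 4 WT arrays, while β-catΔEx3:Myc arrays overlapped with WT. Neither difference was called (log2FC -0.41 ± 0.18, adjusted p = 0.107, and -0.17 ± 0.17, adjusted p = 0.448). In β-catΔEx3 livers it was called, at -0.59 (adjusted p = 0.0241), when the 75th percentile was taken over probes above background on all arrays.

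The kinase Gsk3b was measured by 3 probes, all with a positive log2FC in both comparisons. The probe used for the gene read 1094, 991 and 1291% in β-catΔEx3 livers, 999.5, 1213, 915 and 1282% in β-catΔEx3:Myc livers, and 846, 783, 789 and 1004% in WT livers. It overlapped between groups and was not called (log2FC 0.39 ± 0.17, adjusted p = 0.0968, and 0.36 ± 0.16, adjusted p = 0.0943). A second probe, A_51_P514412, read 85.4, 89.6 and 97.2% in β-catΔEx3 livers, 60.7, 90.9, 83.6 and 74.5% in β-catΔEx3:Myc livers, and 57.4, 58.2, 60.7 and 59.9% in WT livers. There all β-catΔEx3 arrays lay above all WT arrays, and the log2FC of 0.62 ± 0.16 was called (adjusted p = 0.0121 over 29697 probes). That call was lost in the blocked fit (0.65, adjusted p = 0.193), and in β-catΔEx3:Myc livers the probe was not called (0.37 ± 0.15, adjusted p = 0.0617), though it was without β-catΔEx3:Myc replicate 1 (0.49, adjusted p = 0.0207). Probe A_66_P104190 had log2FC of 0.61 ± 0.21 (adjusted p = 0.0447) in β-catΔEx3 and 0.42 ± 0.20 (adjusted p = 0.110) in β-catΔEx3:Myc livers. Its call was lost in the blocked fit (0.43, adjusted p = 0.502) and when 1 of 4 arrays was left out, namely WT replicate 2 (0.108) or 3 (0.112) or β-catΔEx3 replicate 1 (0.0924) or 3 (0.163). With the 75th percentile over probes above background on all arrays, neither A_66_P104190 (adjusted p = 0.120) nor A_51_P514412 (0.0544) was called, and A_66_P104190 was not called with no filter (0.0843) or with only the groups compared (0.0816).

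Csnk1a1, the kinase that adds the first phosphate to β-catenin, had 687, 617 and 738% in β-catΔEx3 livers, 651, 737, 555 and 759% in β-catΔEx3:Myc livers, and 717, 657, 609.8 and 689% in WT livers. These ranges lay almost on top of each other, with log2FC of 0.03 ± 0.15 (95% interval -0.31 to 0.36) and 0.01 ± 0.14 (-0.30 to 0.32) whose sign turned under 3 other scalings in both comparisons. Its other probe, A_52_P339722, read 330.3, 239 and 341% in β-catΔEx3 livers, 289.9, 361, 314 and 358% in β-catΔEx3:Myc livers, and 213, 224, 243 and 263% in WT livers. The β-catΔEx3:Myc arrays all lay above the WT arrays there, and that difference was called (log2FC 0.49 ± 0.16, adjusted p = 0.0295), while that of β-catΔEx3 was not (0.35 ± 0.17, adjusted p = 0.131) except without β-catΔEx3 replicate 2 (0.0350). The call was lost under 3 other scalings (adjusted p of 0.0541, 0.108 and 0.0532), in the blocked fit (0.302) and when WT replicate 1 (0.0777), 2 (0.0749) or 3 (0.0546) or β-catΔEx3:Myc replicate 2 (0.0764) or 4 (0.0636) was left out.

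Btrc, the F-box protein that recognises phosphorylated β-catenin, gave different readings with its 2 probes. The probe used for the gene had 27.6, 63.9 and 26.1% in β-catΔEx3 livers, 24.6, 34.4, 20.7 and 30.7% in β-catΔEx3:Myc livers, and 32.1, 31.4, 35.3 and 47.8% in WT livers. A single β-catΔEx3 array, replicate 2, stood above all others, and neither difference was called (log2FC -0.01 ± 0.32, adjusted p = 0.981, and -0.42 ± 0.30, adjusted p = 0.285). Without that array the log2FC of β-catΔEx3 livers was -0.43. Probe A_55_P2004026 read 28.9, 28.1 and 23.2% in β-catΔEx3 livers, 31.8, 42.4, 37.1 and 34.1% in β-catΔEx3:Myc livers, and 20.7, 17.0, 17.8 and 23.8% in WT livers. All β-catΔEx3:Myc arrays lay above all others, and against WT the log2FC was 0.88 ± 0.16 (adjusted p = 0.0017), blocked 0.46 and not called (adjusted p = 0.308). In β-catΔEx3 livers this probe was not called (0.44 ± 0.17, adjusted p = 0.0720), though it was without WT replicate 4 (0.53, adjusted p = 0.0432). Which transcripts each probe of Gsk3b, Csnk1a1 or Btrc reports could not be read from the files, where the probes of a gene carry the same accession.

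**Figure D1:**
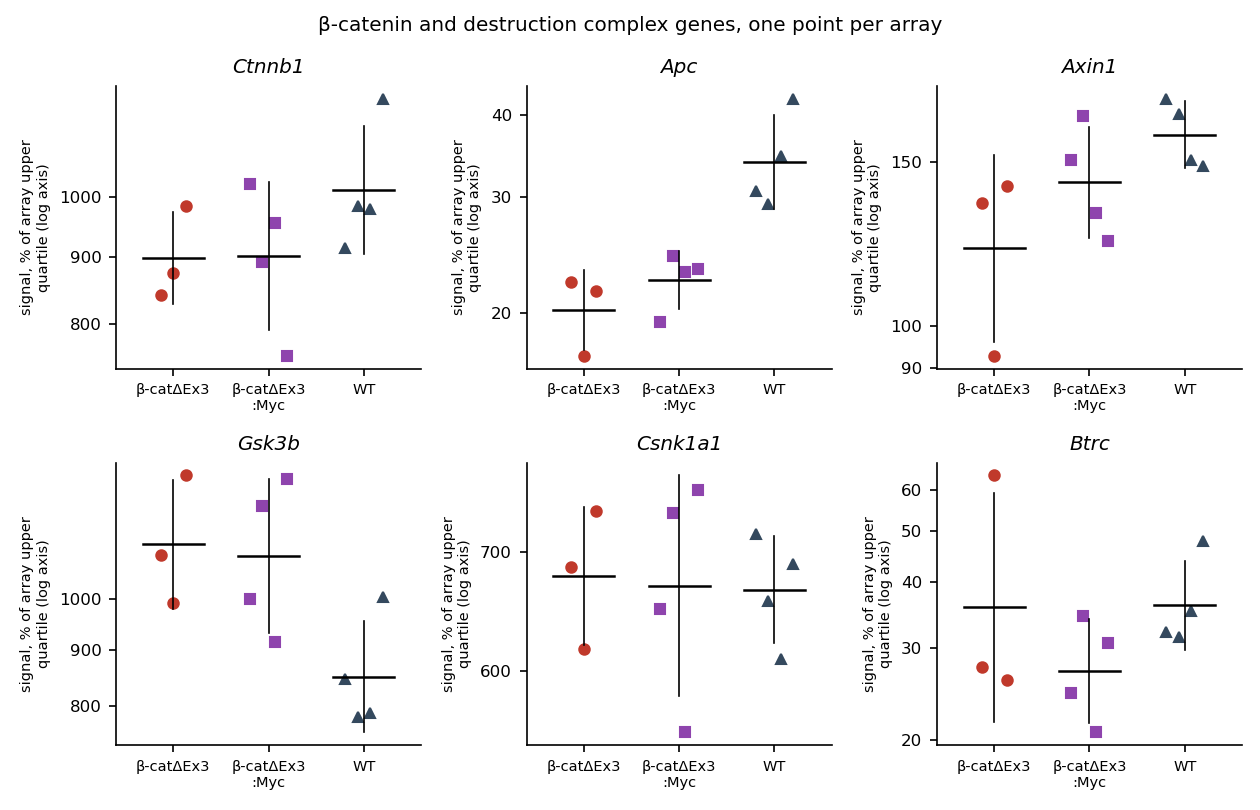
Relative signal (percent of the array's upper quartile, log axis) of Ctnnb1 and 5 destruction complex genes, at the probe used for each gene, with 1 point per array in β-catΔEx3 (circles), β-catΔEx3:Myc (squares) and WT livers (triangles). Horizontal bars are means of log2 signal and vertical bars 1 SD. Apc is the only panel where all mutant arrays lie below all WT arrays.

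Upstream sequences of Tcf7l1, Tcf7l2 (1 of 2 windows) and Lef1 (2 of 4 windows) are shown because Tcf/Lef genes can be Wnt or Myc targets themselves. The windows of Tcf7 were searched and are not printed. They are RefSeq windows on build GRCm38.p6, from 250 bases before to 50 after an annotated gene start, written on the strand of the gene. Capitals mark the E-box CACGTG, the letters that Myc with its partner Max prefers. The windows also were searched for CTTTGAT and CTTTGAA, forms of the Tcf/Lef motif, and all searches covered both strands. The first is the window of Tcf7l1 (chr6:72788996-72789295, minus strand), the second that of Tcf7l2 (chr19:55741560-55741859, plus strand), and the last 2 are starts of Lef1 (chr3:131110047-131110346 and chr3:131156044-131156343, plus strand).
Tcf7l1: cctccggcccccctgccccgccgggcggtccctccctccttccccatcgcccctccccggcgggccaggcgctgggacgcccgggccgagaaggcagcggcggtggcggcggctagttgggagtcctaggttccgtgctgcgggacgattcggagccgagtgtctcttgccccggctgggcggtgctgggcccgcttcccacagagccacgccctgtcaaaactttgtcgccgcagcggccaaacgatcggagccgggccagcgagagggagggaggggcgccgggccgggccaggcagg
Tcf7l2: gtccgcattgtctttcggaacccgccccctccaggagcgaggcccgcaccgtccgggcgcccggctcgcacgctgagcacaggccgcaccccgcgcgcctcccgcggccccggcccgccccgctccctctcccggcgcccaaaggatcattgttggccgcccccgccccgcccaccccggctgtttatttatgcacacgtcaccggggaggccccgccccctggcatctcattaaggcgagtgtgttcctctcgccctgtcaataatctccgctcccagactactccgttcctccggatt
Lef1 first start: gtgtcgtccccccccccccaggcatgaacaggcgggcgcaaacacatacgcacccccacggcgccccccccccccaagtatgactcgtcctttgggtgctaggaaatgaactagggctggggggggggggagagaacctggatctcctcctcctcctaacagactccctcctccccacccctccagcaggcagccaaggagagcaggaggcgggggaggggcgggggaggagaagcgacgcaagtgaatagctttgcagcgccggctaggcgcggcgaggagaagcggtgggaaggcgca
Lef1 later start: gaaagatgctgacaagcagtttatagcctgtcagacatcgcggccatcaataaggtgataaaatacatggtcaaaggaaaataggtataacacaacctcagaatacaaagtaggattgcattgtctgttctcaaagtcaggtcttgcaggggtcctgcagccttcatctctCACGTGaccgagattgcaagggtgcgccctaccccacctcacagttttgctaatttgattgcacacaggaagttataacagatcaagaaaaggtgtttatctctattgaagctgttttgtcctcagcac
No window of Ctnnb1 (2), Gsk3b (1), Tcf7 (2), Tcf7l1 (1), Tcf7l2 (2) or Lef1 (4) held CTTTGAT or CTTTGAA. Either was present in 8.65% of the 32851 windows of all genes. CACGTG was found once, in the later Lef1 window, 79 bases before the start, and 7.15% of all windows held it. A match is a string of letters and not a measured binding site, and no match covers only these 300 bases. Which Lef1 start the probe reports is not given.

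The Tcf/Lef genes moved in opposite directions. Tcf7l1 and Tcf7l2 were lower and Tcf7 higher in both mutant groups, while Lef1 was called higher in β-catΔEx3:Myc livers. Tcf7l1 (Tcf3), a factor known mainly as a repressor of Wnt targets, had 12.7, 11.4 and 13.9% in β-catΔEx3 livers, 6.89, 9.22, 7.88 and 15.01% in β-catΔEx3:Myc livers, and 33.5, 29.1, 37.0 and 32.0% in WT livers. The groups did not overlap, with the highest mutant array at 15.01% and the lowest WT array at 29.1%. Tcf7l1 was 2.59-fold lower in β-catΔEx3 livers (log2FC -1.37 ± 0.24, adjusted p = 0.0017) and 3.52-fold lower in β-catΔEx3:Myc livers (log2FC -1.81 ± 0.22, adjusted p = 0.0002). The blocked fit gave -0.96 (adjusted p = 0.116) and -1.33 (adjusted p = 0.0523). With normexp background correction, which shrinks folds of dim probes, the values were -0.71 and -0.90 and were called.

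Tcf7l2 (Tcf4), best known for its part in the intestine and in glucose metabolism, also fell. The probe used for the gene read 76.1, 71.2 and 74.8% in β-catΔEx3 livers, 76.4, 82.0, 67.4 and 99.6% in β-catΔEx3:Myc livers, and 177, 174, 165 and 188% in WT livers. Tcf7l2 was 2.38-fold lower in β-catΔEx3 livers (log2FC -1.25 ± 0.15, adjusted p = 0.0002, blocked -1.22) and 2.19-fold lower in β-catΔEx3:Myc livers (log2FC -1.13 ± 0.14, adjusted p = 0.0002, blocked -1.02). Of the 3 genes that fell in both comparisons, only Tcf7l2 kept its calls in the blocked fit (adjusted p = 0.0200 and 0.0339). A second probe, annotated to another transcript record of the gene, had 77.1, 60.8 and 93.5% in β-catΔEx3 livers, 68.6, 91.6, 71.7 and 93.0% in β-catΔEx3:Myc livers, and 109, 97.0, 83.5 and 115% in WT livers. These groups overlapped and were not called (log2FC -0.40 ± 0.20, adjusted p = 0.141, and -0.32 ± 0.18, adjusted p = 0.191). In β-catΔEx3 livers this probe was called lower, at -0.59 (adjusted p = 0.0392), when the 75th percentile was taken over probes above background on all arrays. The other Tcf7l2 probe was at the background on all 11 arrays. In the main fit the fall of Tcf7l2 was thus called at 1 of its 2 detected probes, with a negative log2FC at both. The difference between the probes was not tested.

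Tcf7 (Tcf1), a T cell and stem cell factor that is itself a Wnt target in several tissues, rose. It had 98.3, 85.4 and 58.6% in β-catΔEx3 livers, 80.4, 89.0, 103 and 60.1% in β-catΔEx3:Myc livers, and 48.8, 41.9, 54.6 and 16.8% in WT livers. Every mutant array lay above every WT array, and on slide 4 all 3 groups had their lowest value. Tcf7 was 2.13-fold higher in β-catΔEx3 livers (log2FC 1.09 ± 0.38, adjusted p = 0.0457) and 2.21-fold higher in β-catΔEx3:Myc livers (log2FC 1.14 ± 0.36, adjusted p = 0.0247). The blocked values were larger, at 1.86 ± 0.25 (adjusted p = 0.0095) and 1.79 ± 0.25 (adjusted p = 0.0105), and within slide 4 the differences were 1.81 and 1.84. All 4 of these values rest on WT replicate 4, the array with the lowest Tcf7 signal (16.8%). Without that array the unblocked log2FC was smaller, at 0.71 in β-catΔEx3 and 0.76 in β-catΔEx3:Myc livers. The first call is close to the threshold and was lost when WT replicate 2 (adjusted p = 0.0694) or 4 (0.0542) or β-catΔEx3 replicate 1 (0.146) or 2 (0.105) was left out. The second was lost without β-catΔEx3:Myc replicate 2 (0.0576) or β-catΔEx3:Myc replicate 3 (0.0648). A dim second probe, above background on 2 of 3 β-catΔEx3, 3 of 4 β-catΔEx3:Myc and 1 of 4 WT arrays, had log2FC of 0.65 ± 0.39 (adjusted p = 0.229) and 0.76 ± 0.37 (adjusted p = 0.120). The blocked fit called it higher in both comparisons, at 1.48 (adjusted p = 0.0288) and 1.47 (adjusted p = 0.0290). WT replicate 4 was again the lowest array, at 1.58%, and without it the unblocked log2FC of this probe was 0.26 and 0.37.

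Lef1, which like Tcf7 is abundant in lymphocytes and sparse in adult liver, was the only one of the 10 genes not above background on all 11 arrays at the probe used for it. Its relative signal was 11.3, 18.5 and 3.01% in β-catΔEx3 livers, 31.1, 11.0, 24.3 and 24.2% in β-catΔEx3:Myc livers, and 5.22, 10.3, 3.33 and 4.08% in WT livers. It was above background on 2 of 3, 4 of 4 and 2 of 4 of these arrays. All 4 β-catΔEx3:Myc arrays lay above all 4 WT arrays, the closest pair by a small margin, whereas the β-catΔEx3 arrays ran from below the lowest WT array to above the highest. Lef1 was 4.07-fold higher in β-catΔEx3:Myc livers (log2FC 2.03 ± 0.56, adjusted p = 0.0147) and not called in β-catΔEx3 livers (0.72 ± 0.61, adjusted p = 0.384). That log2FC of β-catΔEx3 livers was 0.16 with their replicate 2 left out and 1.47 with their replicate 3 left out. The call in β-catΔEx3:Myc livers was lost in the blocked fit (1.68 ± 1.09, adjusted p = 0.353), and with normexp background correction the log2FC was 0.67. The difference between the mutant groups was itself tested and not called (log2FC 1.31 ± 0.61, adjusted p = 0.504; 1.86 with β-catΔEx3 replicate 2 left out and 0.55 with replicate 3 left out), at 0.36 within slide 2 and 3.01 within slide 4. Within slide 4 the difference from WT was -0.44 for the β-catΔEx3 array and 2.57 for the β-catΔEx3:Myc array.

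**Figure D2:**
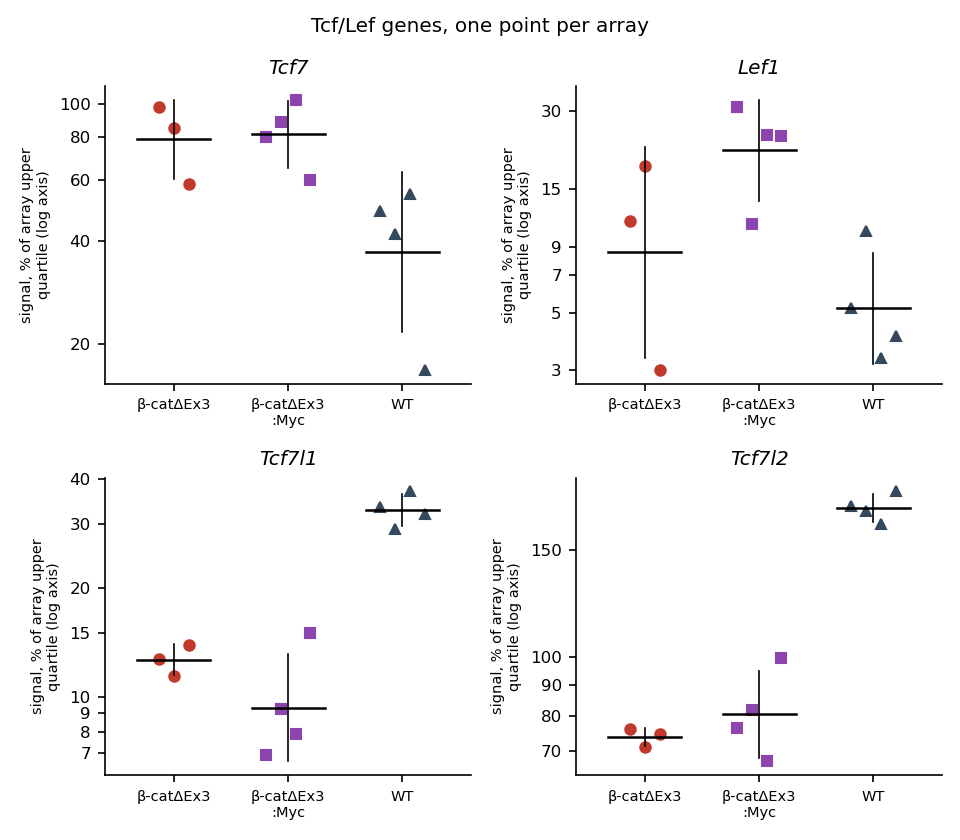
Relative signal (percent of the array's upper quartile, log axis) of the 4 Tcf/Lef genes at the probe used for each gene, 1 point per array in β-catΔEx3 (circles), β-catΔEx3:Myc (squares) and WT livers (triangles), with the mean of log2 signal and 1 SD. Tcf7 lies at 58.6% or above on all mutant arrays and at 54.6% or below in WT, while Tcf7l1 and Tcf7l2 lie lower on all mutant arrays.

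**Figure D3:**
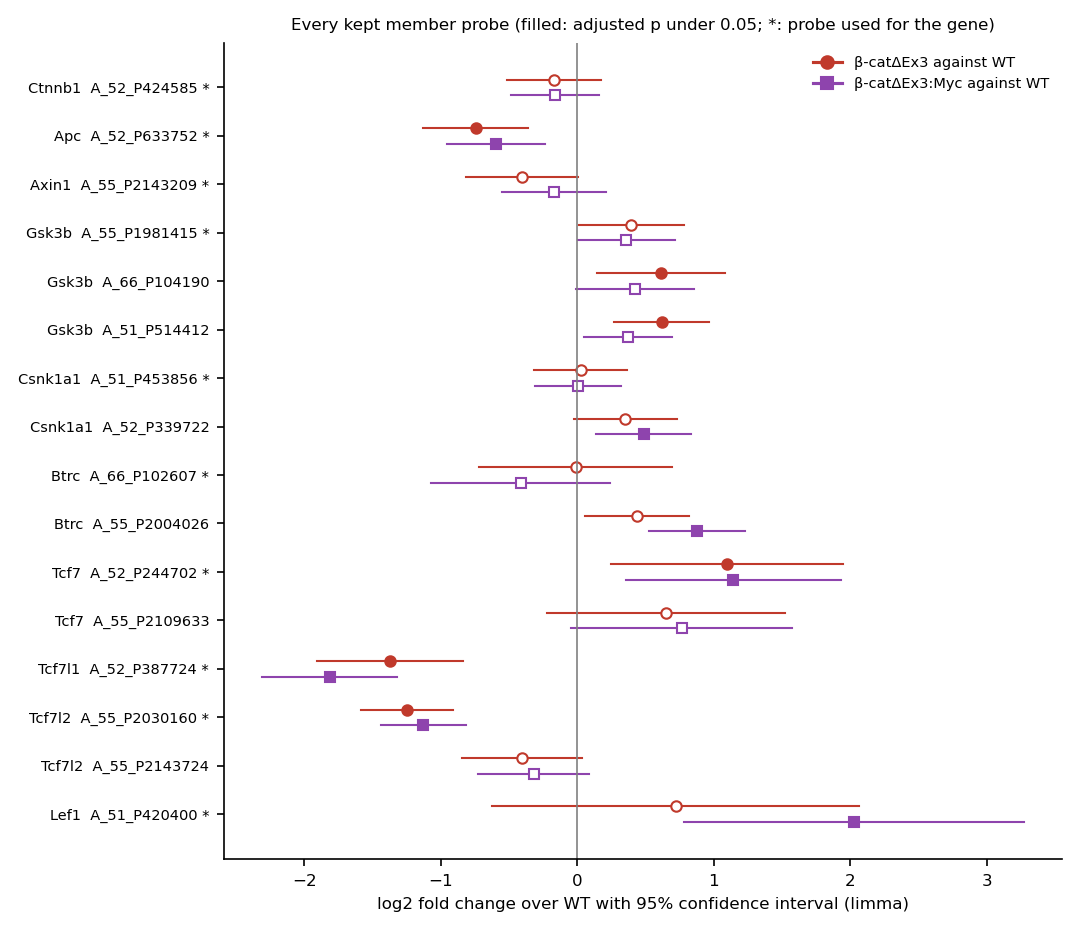
Log2 fold change over WT with its 95% confidence interval for each of the 16 kept probes, in β-catΔEx3 (circles) and β-catΔEx3:Myc livers (squares). Filled symbols have an adjusted p under 0.05 over all probes, and a star marks the probe used for the gene. Probes of Btrc, Csnk1a1, Gsk3b, Tcf7 and Tcf7l2 do not all reach the same call.

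Over the 16 kept probes, 3 were higher and 3 lower in β-catΔEx3 livers (35.1% of all 29697 probes were called) and 4 were higher and 3 lower in β-catΔEx3:Myc livers (41.1% of all). The blocked fit called 3 of the 16 in each comparison, both Tcf7 probes higher and 1 Tcf7l2 probe lower, against 7.54% and 8.06% of all probes.

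Tcf7 and Lef1 are also T cell genes, so markers of the other cells in the tissue are given beside them. Of everything tested, 21.6% was called higher and 15.5% lower in β-catΔEx3 livers, 25.3% higher and 17.1% lower in β-catΔEx3:Myc livers. The blocked fit called 8.14% and 8.77%. The T cell markers Cd3d, Cd3g, Cd2 and Cd4 were lower in both mutant groups, and of 12 T cell markers tested none was higher and 7 were lower in β-catΔEx3 livers, 1 (Cd3e) higher and 8 lower in β-catΔEx3:Myc livers. Cd3e, a chain of the T cell receptor complex, had log2FC of 0.32 (adjusted p = 0.501) in β-catΔEx3 and 0.87 (adjusted p = 0.0473, blocked 0.509) in β-catΔEx3:Myc livers. The summed relative signal of the 14 T cell markers was 1358 to 3434% in β-catΔEx3, 2081 to 4006% in β-catΔEx3:Myc and 4774 to 5840% in WT livers. Cd4, which mouse macrophages can carry too, made up most of it, and in the blocked fit it was the 1 T cell marker called in each comparison. Of these markers Cd2, Cd3g and Cd8a were at the background on all β-catΔEx3 arrays, and Cd8b1, Il7r and Cd8a on all β-catΔEx3:Myc arrays. Tcf7 and Lef1 thus were called in the direction opposite to most T cell markers, whose part in either result was not tested.

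Called markers of hepatocytes, endothelium, stellate cells, macrophages and B cells were lower, the direction of Tcf7l1 and Tcf7l2, while biliary and NK cell markers were mixed. Of the 8 hepatocyte markers, 5 (β-catΔEx3) and 4 (β-catΔEx3:Myc) were called lower and 0 higher, against 1 and 1 called in the blocked fit. The sum of 8 endothelial markers was 5148 to 6667% in β-catΔEx3, 2670 to 4229% in β-catΔEx3:Myc and 10596 to 12536% in WT livers, and 4 (β-catΔEx3) and 6 (β-catΔEx3:Myc) of the 8 were called lower, against 0 and 3 in the blocked fit. The sum of 7 markers of stellate cells and fibroblasts was 6173 to 6978% in β-catΔEx3, 2518 to 4981% in β-catΔEx3:Myc and 7671 to 13706% in WT livers, with 2 (β-catΔEx3) and 5 (β-catΔEx3:Myc) of 7 lower, against 1 and 2 in the blocked fit. All 7 macrophage markers were lower in both comparisons, as were 3 of 3 tested B cell markers, and the blocked fit called 0 of either list. Biliary markers were called higher in 1 of 6 (β-catΔEx3) and lower in 1 of 6 (β-catΔEx3:Myc), and of 4 NK cell markers 1 was higher and 2 lower in each, with 0 of either list called in the blocked fit. The part of these cells in the results for Apc, Tcf7l1 and Tcf7l2 was not tested.

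Myc was set against mutant β-catenin alone by comparing β-catΔEx3:Myc with β-catΔEx3 livers. The relative signal of Myc itself was uneven, at 2157, 750, 498 and 2678% in β-catΔEx3:Myc livers and 461, 221 and 358% in β-catΔEx3 livers. None of the 10 genes and none of the 16 probes was called in that limma comparison, where 0.251% of everything tested was. At an unadjusted p under 0.05 there were 0 of the 10 genes and 1 of the 16 probes, the second Btrc probe (log2FC 0.44 ± 0.17, adjusted p = 0.409), and the blocked fit called 0 genes (0.799% of everything tested) and 0 probes (0.687%). For 0 of the 10 genes the 2 groups were free of overlap, against 8.1% of everything tested. The intervals leave room for moderate differences, such as -0.98 to 0.09 for Tcf7l1, -0.04 to 2.65 for Lef1 and -0.80 to 0.90 for Tcf7. They were narrower for Ctnnb1 (-0.34 to 0.35), Csnk1a1 (-0.35 to 0.32) and Tcf7l2 (-0.21 to 0.46).

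Other genes of the pathway were counted from lists, each to be read against the share of everything tested. That share was 21.6% higher and 15.5% lower in β-catΔEx3 livers, and 25.3% higher and 17.1% lower in β-catΔEx3:Myc livers. In the blocked fit 8.14% and 8.77% were called in either direction. Of 32 genes in the rest of the destruction complex and of β-catenin turnover, 11 were higher and 5 lower in β-catΔEx3 livers, 13 higher and 4 lower in β-catΔEx3:Myc livers. The list's median log2FC was 0.32 and 0.36, against 0.10 and 0.14 for everything tested. Of the lists below, it was 0.43 and 0.35 for ligands and secreted inhibitors, and -0.26 and -0.15 for nuclear partners. It was 0.08 and 0.15 for adherens junction genes, and 0.15 and -0.06 for receptors and Dishevelled. Nkd1, which dampens Dishevelled, was at 471 to 648% in β-catΔEx3, 391.8 to 726% in β-catΔEx3:Myc and 112 to 150% in WT livers (log2FC 2.12 ± 0.22, adjusted p = 0.0001, in β-catΔEx3 and 2.09 ± 0.21, adjusted p = 5.3e-05, in β-catΔEx3:Myc). The casein kinase Csnk1e was at 269 to 382% in β-catΔEx3, 206 to 351% in β-catΔEx3:Myc and 66.6 to 97.0% in WT livers. It was called higher in both (adjusted p = 0.0002 in β-catΔEx3, 9.4e-05 in β-catΔEx3:Myc), with blocked log2FC of 1.38 in β-catΔEx3 and 1.18 in β-catΔEx3:Myc that were called too. Axin2, the inducible relative of Axin1, was above background on 3 of 3, 4 of 4 and 1 of 4 arrays and was called higher in both comparisons, though not in the blocked fit (adjusted p = 0.401 in β-catΔEx3, 0.276 in β-catΔEx3:Myc). In β-catΔEx3 livers its call was also lost when WT replicate 2 (0.0738) or 3 (0.0730) or β-catΔEx3 replicate 2 (0.0750) or 3 (0.103) was left out, and with normexp background correction (log2FC 0.44, adjusted p = 0.0530). The same held with no filter (0.0501) and with only the groups compared (0.0647). Dact1, a Dishevelled partner, fell in β-catΔEx3 (log2FC -1.27 ± 0.28, adjusted p = 0.0060, blocked 0.0883) and in β-catΔEx3:Myc livers (-2.12 ± 0.26, adjusted p = 0.0002, blocked 0.0283). The count of higher genes fell when any of several single arrays was left out, and so did the calls over everything tested. In β-catΔEx3 livers these went from 8266 to 6492 without WT replicate 2 and to 6030 without β-catΔEx3 replicate 1. The count of higher genes in β-catΔEx3 livers fell to 4 with WT replicate 2 left out and to 5 with WT replicate 3 or β-catΔEx3 replicate 1 left out. It fell to 7 with β-catΔEx3 replicate 3 left out. In β-catΔEx3:Myc livers it fell to 7 with WT replicate 2 left out and to 8 with WT replicate 3 left out. Other scalings gave 7 to 9 higher in both comparisons, and the blocked fit 2 in each. The 5 lower genes in β-catΔEx3 livers were 3 when WT replicate 1 or β-catΔEx3 replicate 1 or 2 was left out, and 0 in the blocked fit.

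Of 25 nuclear partners on the array, which build or block the complex of β-catenin and Tcf, 22 passed the filter on dim probes. Among these, 2 were higher and 5 lower in each comparison. The share of everything tested was 21.6% higher and 15.5% lower in β-catΔEx3, 25.3% higher and 17.1% lower in β-catΔEx3:Myc livers. The corepressor Tle2 was at 29.2 to 59.6% in β-catΔEx3, 34.9 to 44.4% in β-catΔEx3:Myc and 128 to 211% in WT livers (log2FC -1.94 ± 0.26, adjusted p = 0.0004, in β-catΔEx3 and -2.03 ± 0.24, adjusted p = 0.0001, in β-catΔEx3:Myc). Its relative Tle4 fell in β-catΔEx3 (-2.15 ± 0.46, adjusted p = 0.0047, blocked 0.207) and in β-catΔEx3:Myc livers (-2.44 ± 0.42, adjusted p = 0.0012, blocked 0.191), and was above background on a single array of each mutant group. Ctnnbip1 (ICAT), which keeps β-catenin off Tcf factors, was at 55.5 to 72.8% in β-catΔEx3, 42.6 to 93.7% in β-catΔEx3:Myc and 187 to 342% in WT livers (adjusted p = 0.0010 in β-catΔEx3, 0.0006 in β-catΔEx3:Myc). Nlk, a kinase that can release Tcf factors from DNA, rose, at 390.3 to 463% in β-catΔEx3, 582 to 619.6% in β-catΔEx3:Myc and 103 to 149% in WT livers (adjusted p = 3.5e-05 in β-catΔEx3, 4e-06 in β-catΔEx3:Myc). Tle2, Ctnnbip1 and Nlk kept their calls in the blocked fit. The counts of lower genes were 8 to 10 under other scalings and 3 in the blocked fit.

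Of 10 genes of adherens junctions, where β-catenin links cadherins to actin, 8 passed the filter on dim probes. Among these, 1 was higher and 1 lower in β-catΔEx3, 1 higher and 2 lower in β-catΔEx3:Myc livers. The share of everything tested was 21.6% higher and 15.5% lower in β-catΔEx3, 25.3% higher and 17.1% lower in β-catΔEx3:Myc livers. The linker α-catenin Ctnna1 rose in β-catΔEx3 (log2FC 0.79 ± 0.17, adjusted p = 0.0058, blocked 0.195) and in β-catΔEx3:Myc livers (0.62 ± 0.16, adjusted p = 0.0106, blocked 0.334). Its call in β-catΔEx3:Myc livers was lost with quantile normalization (0.0757) and in the deposited matrix (0.0675). The endothelial cadherin Cdh5, also in the endothelial list above, fell in β-catΔEx3 (log2FC -1.21 ± 0.27, adjusted p = 0.0062, blocked 0.223) and in β-catΔEx3:Myc livers (-2.16 ± 0.25, adjusted p = 0.0001, blocked 0.0377). The cadherin Cdh2 was called in β-catΔEx3:Myc livers (-0.51 ± 0.19, adjusted p = 0.0473). That call was lost in the blocked fit (0.263), with no filter (0.0798) and without any of 7 of the 8 arrays compared (0.0520 to 0.120). In β-catΔEx3 livers Cdh2 was not called (-0.45 ± 0.20, adjusted p = 0.103). It was called lower there with quantile normalization (0.0179), with the percentile over probes above background on all arrays (0.0294) and in the deposited matrix (0.0205). The same held without β-catΔEx3 replicate 2 (0.0151).

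Of 25 receptor and Dishevelled genes on the array, 20 passed the filter on dim probes. They gave 5 higher and 4 lower in each comparison, against 1 higher and 1 lower in the blocked fit. These counts are near the general share. Of everything tested, 21.6% was higher and 15.5% lower in β-catΔEx3, 25.3% higher and 17.1% lower in β-catΔEx3:Myc livers. The blocked fit called 8.14% and 8.77%. Lgr5, the receptor for R-spondins, was at 610.3 to 778% in β-catΔEx3, 661 to 756% in β-catΔEx3:Myc and 118 to 201% in WT livers. Znrf3, a ligase that removes Wnt receptors, was higher in β-catΔEx3 (log2FC 1.21 ± 0.32, adjusted p = 0.0132, blocked 0.123) and in β-catΔEx3:Myc livers (1.32 ± 0.29, adjusted p = 0.0047, blocked 0.107). The call in β-catΔEx3 livers was lost without β-catΔEx3 replicate 1 (0.0565). Wls, needed to secrete Wnts, was lower in β-catΔEx3 (-1.15 ± 0.21, adjusted p = 0.0023, blocked 0.215) and in β-catΔEx3:Myc livers (-2.04 ± 0.20, adjusted p = 4.7e-05, blocked 0.0401). Fzd3 was not above background on any β-catΔEx3 array and was at least 2.57-fold lower there (adjusted p = 0.0140), a call lost in the blocked fit (0.355), without β-catΔEx3 replicate 2 (0.0519) and with normexp background correction (log2FC -0.26, adjusted p = 0.141). Without the WT arrays, where it was higher, Fzd3 would not have passed the filter on dim probes. The 5 higher genes in β-catΔEx3 livers were 3 without β-catΔEx3 replicate 2 or WT replicates 2 or 3, and 2 without β-catΔEx3 replicate 1, and in β-catΔEx3:Myc livers 3 without WT replicate 2.

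Of 33 ligands and secreted inhibitors on the array, 16 passed the filter on dim probes. They gave 2 higher and 2 lower in β-catΔEx3 and 5 higher and 5 lower in β-catΔEx3:Myc livers. The share of everything tested was 21.6% higher and 15.5% lower in β-catΔEx3, 25.3% higher and 17.1% lower in β-catΔEx3:Myc livers. The blocked fit gave 1 higher and 1 lower in β-catΔEx3 and 2 higher and 2 lower in β-catΔEx3:Myc livers. In β-catΔEx3 livers the higher count was 1 when any WT array or β-catΔEx3 replicate 1 or 2 was left out. Whether these counts differ was not tested. The ligand Wnt10a was at 22.1 to 27.3% in β-catΔEx3 and 4.41 to 9.65% in β-catΔEx3:Myc livers, where 2 of 4 arrays were above background, and in WT livers, where none was, at 0.92 to 1.85%. It was at least 5.86-fold higher in β-catΔEx3 (adjusted p = 1.1e-05) and at least 1.31-fold higher in β-catΔEx3:Myc livers (adjusted p = 0.0002, blocked 0.0509). Wnt10a passed the filter on dim probes only through mutant arrays, the ones where it was higher. With normexp background correction the call in β-catΔEx3:Myc livers was lost (log2FC 0.21, adjusted p = 0.174). Wnt10a was the gene of these pathway lists called between the mutant groups, lower with Myc (log2FC -2.16, adjusted p = 0.0263), a call that was lost in the blocked fit (0.0763) and when β-catΔEx3:Myc replicate 2 (0.0694) or 4 (0.0630) or β-catΔEx3 replicate 2 (0.0554) or 3 (0.136) was left out. The secreted inhibitor Wif1 was at 1.03 to 6.88% in β-catΔEx3, 31.9 to 302% in β-catΔEx3:Myc and 3.85 to 70.7% in WT livers. It was not called in β-catΔEx3 livers and was called higher in β-catΔEx3:Myc livers (log2FC 3.84 ± 1.03, adjusted p = 0.0122, blocked 1.44 with adjusted p = 0.562). It was above background on 1 of 3 β-catΔEx3, 4 of 4 β-catΔEx3:Myc and 2 of 4 WT arrays. With normexp background correction its log2FC was 2.17. Without WT replicate 4 it was 4.81, without β-catΔEx3:Myc replicate 1 it was 4.53, and at its lowest, without WT replicate 2, it was 3.41. The difference of Wif1 between the mutant groups was not called (log2FC 5.45, adjusted p = 0.0758). Wnt4 was at 6.78 to 13.9% in β-catΔEx3, 15.1 to 126% in β-catΔEx3:Myc and 5.41 to 6.51% in WT livers, called in β-catΔEx3:Myc livers (3.00 ± 0.58, adjusted p = 0.0023). In β-catΔEx3 livers all arrays lay above WT and Wnt4 was not called (0.77, adjusted p = 0.364), except with only the groups compared (0.0455). Between the mutant groups Wnt4 was not called (2.23, adjusted p = 0.191). Wnt2, a ligand made by liver endothelium, was not above background on any β-catΔEx3 array and was at least 3.32-fold lower there (adjusted p = 0.0007, blocked 0.0791). In β-catΔEx3:Myc livers, where 1 array was above background, it was lower too (-1.91 ± 0.37, adjusted p = 0.0022, blocked 0.202). Without the WT arrays, where it was higher, Wnt2 would not have passed the filter on dim probes.

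**Figure D4:**
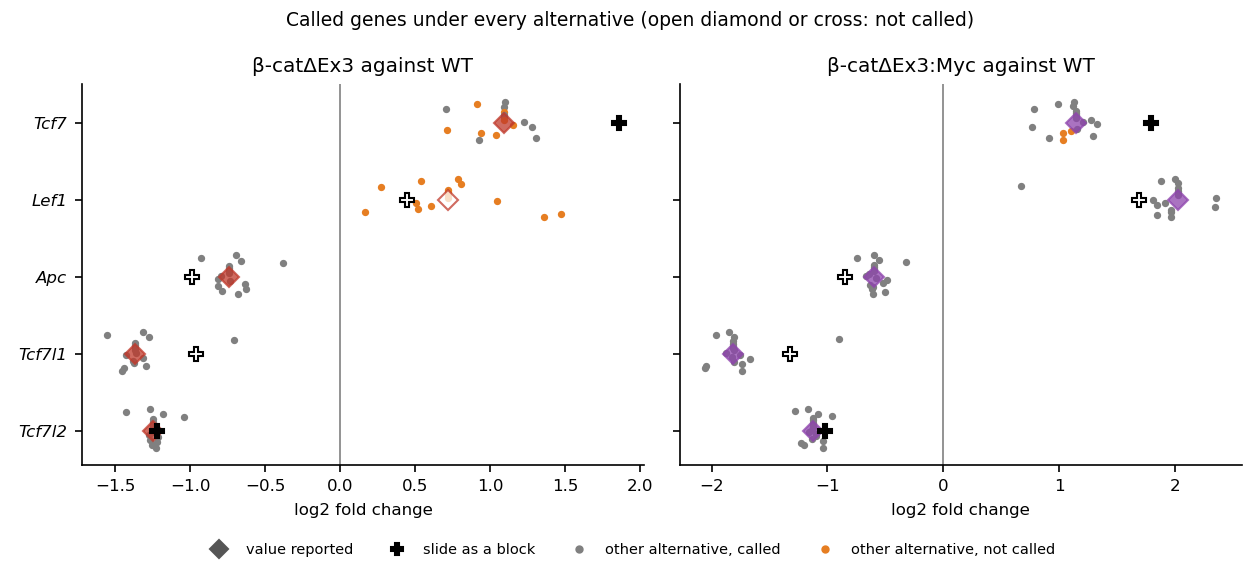
Log2 fold change over WT of the 5 genes called in either comparison, for β-catΔEx3 (left) and β-catΔEx3:Myc (right). Diamonds are the values reported, crosses the fit with slide as a block and small points the other alternatives, open or orange where the adjusted p was 0.05 or more. All points drawn for a gene lie on one side of 0 (single-slide differences are not drawn, and that of Lef1 in β-catΔEx3 within slide 4 was -0.44), and Tcf7l2 is the only gene with no open or orange symbol in either panel.

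The genes most like each called member over the 11 arrays were taken by the Pearson correlation of log2 signal, given as a description. The arrays share the split between mutant and WT, so r after removal of the group means is given beside each. Nearest to Tcf7l2 were the cytochrome Cyp2j5 (r = 0.995, and 0.903 with group means removed), Wfdc21 (0.992 and 0.838) and the sialyltransferase St6gal1 (0.984 and 0.679). Nearest to Tcf7l1 were Ern1 (0.974 and 0.794), the kinase Fyn (0.972 and 0.776) and Arap3 (0.971 and 0.827). For Tcf7 they were the tRNA methyltransferase Mettl1 (0.962 and 0.953), the mitochondrial elongation factor Tsfm (0.949 and 0.886) and the securin Pttg1 (0.943 and 0.967). Apc was nearest to Bend7 (0.980 and 0.906), Cyp4f13 (0.975 and 0.902) and the histone methyltransferase Nsd3 (0.970 and 0.872). Lef1 was nearest to Pidd1 (0.966 and 0.923), Cyp2c66 (0.912 and 0.820) and the pancreatic elastase Cela3a (0.906 and 0.792).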

How the data were processed

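Expression was measured in 11 mouse liver samples, 1 array each, grouped by GEO's labels. Spot intensities were read with Agilent Feature Extraction 10.7.1.1, per the submitters' processing notes, and the deposited processed intensity is background-subtracted, per the file headers. The log2 values of the matrix the authors deposited are normalized in a way not given in the sources used here, and served as an alternative. Control spots and 137 to 209 outlier spots per array were left out of 59305. Each array's processed signal was divided by its 75th percentile and put on the log2 scale. A probe had to be well above background on 3 or more arrays, which 29697 were, and the probe with the highest mean stood for a gene. Accessions matched a RefSeq symbol for 26582 probes and none for 29099. The tests are those of limma 3.58.1 (R 4.3.3, 8 residual and 2.51 prior degrees of freedom) with Benjamini-Hochberg adjustment and all groups in 1 fit, tested on simulated data. The number of arrays limits the precision. Alternatives were other scalings, normexp with an offset of 50 on median signals, other filters, slide as a block, and each array left out. From each pathway list up to 4 called genes were named, by size of change, and for each called member the 3 genes with the highest correlation. Members and lists were chosen with earlier results of these data known.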

Additional observations from a re-analysis of the deposited data

How the results depend on the processing

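The 49 called results kept their direction in all 876 values under alternatives and lost their call in 90. Of 590 values of results not called, 43 changed sign and 0 of these were called. Some results not called gained a call under an alternative without a change of sign. This was so for 1 value of a member gene, 8 of other member probes and 5 of list genes. With slide as a block, 2 members were called in each comparison with WT, against 4 and 5, and 1813 and 1954 of all items, against 8266 and 9451. Leaving out single arrays gave 3 to 4 members in β-catΔEx3, 4 to 5 in β-catΔEx3:Myc and 0 between the mutant groups. Tcf7 in β-catΔEx3 livers also lost its call with the percentile over probes above background on all arrays (adjusted p = 0.0892), with no filter (0.0766) and with only the groups compared (0.0813). That percentile moved the higher share of calls to 42.2% and 48.3%, against 58.1% and 59.6%, and the median log2FC of all items to -0.08 and -0.01. Between the mutant groups 56 items were called, 2 without slide 4, 180 without slide 3, 178 blocked, 9 with only the groups compared, and 10 to 180 without single arrays. The alternatives without slide 3 or 4 were chosen after seeing the data. Sign changes were mostly small, though Btrc in β-catΔEx3 livers reached 0.35 without slide 4. Between the mutant groups, Ctnnb1 was -0.024 blocked and -0.024 without slide 3 (single arrays left out, -0.056 to 0.089). Gsk3b was 0.0031 in the deposited matrix, 0.050 blocked and 0.050 without slide 3 (-0.12 to 0.068). Csnk1a1 was 0.014 with the other percentile, 0.073 blocked and 0.073 without slide 3 (-0.087 to 0.073). Tcf7 was -0.065 blocked, -0.065 without slide 3 and -0.021 without slide 4 (-0.17 to 0.21), and Btrc was -0.63 to 0.015 without single arrays. Against WT, Csnk1a1 in β-catΔEx3 livers was -0.12 with quantile normalization, -0.16 with the other percentile, -0.081 in the deposited matrix and -0.019 without slide 4 (-0.035 to 0.094). In β-catΔEx3:Myc livers it was -0.12, -0.14, -0.089 and -0.037 (-0.053 to 0.098). Btrc in β-catΔEx3 livers was 0.031 with quantile normalization, 0.053 in the deposited matrix and 0.35 without slide 4 (-0.43 to 0.22). The cause of these moves was not tested. No paired analysis was possible because the labels give the groups no shared replicate numbers. Signal over background limits Lef1, Axin2, Dact1, Tle4, Wnt2, Wnt10a, Wif1, Fzd3 and the second Tcf7 probe. Axin2, Wnt10a and the second Tcf7 probe passed the filter on dim probes only with the mutant arrays, where they were higher. Tle4, Wnt2 and Fzd3 passed it only with the WT arrays, where they were higher.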
